A study of Mus musculus with 6 samples.

Results

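The nuclear-encoded genes of the mitochondrial respiratory chain and ATP synthase were followed in double-positive thymocytes that carried a Sox13 transgene. Members were all genes whose symbol starts with Nduf, with Sdh followed by a, b, c or d, with Uqcr, with Cox4 to Cox8 or with Atp5, plus Cycs and Cyc1, read from probe sets with 1 gene symbol. This rule took 80 of the 8511 genes named in this way, and 173 of 25470 probe sets. It also took 4 assembly factors that are not subunits (Ndufaf1, Ndufaf4, Sdhaf1 and Sdhaf2). These are included in the counts, medians and promoter shares over all members, and are left out of complexes I to V and described apart. A further 13 probe sets that name a member together with another gene or a pseudogene were left out. The rule uses names alone and no measured value.

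The cells were CD4+CD8+ double-positive thymocytes, which carry both co-receptors and precede the mature alpha-beta T cells, sorted from 6-week-old female C57BL/6 mice. The transgenic group carried the Sox13 transgene, and the control group were wild-type littermates. A sort held pooled cells from 2 or more mice. The promoter that drives the transgene and the number of founder lines are not stated in the sources used here. The Mu11K A and B arrays of experiment 1 together count as 1 replicate, and experiment 2 had the U74A array, each with 1 transgenic and 1 wild-type sample, which makes 6 arrays. Gene levels below are array intensities scaled so that the trimmed mean of an array is 500, with values under a floor of 100 set to 100. A log2 ratio sets the transgenic over the wild-type sample. The sums of cell type markers were taken without the floor and can include values below it. Levels of different genes, or of the same gene on different array types, are not compared, because each probe set has its own brightness.

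The respiratory chain passes electrons from NADH (complex I, genes Nduf) and succinate (complex II, Sdh) through complex III (Uqcr and Cyc1) and the mobile carrier cytochrome c (Cycs) to complex IV (Cox), which reduces oxygen. Complexes I, III and IV pump protons across the inner mitochondrial membrane, and complex V, the ATP synthase (Atp5), uses the gradient to make ATP. A core of subunits is encoded in mitochondrial DNA and was not analysed here. The nuclear genes studied here encode the rest, and the factors NRF-1, GABP (an ETS protein) and YY1 are known to act at many of their promoters.

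Promoters of 66 members stood in the RefSeq table (build GRCm38.p6), as 71 stretches from 250 bases before to 50 bases after the transcript start. The letters searched on both strands were GCGCATGC (NRF-1 core), ACTTCCGG (ETS core), AAGATGGC (YY1 core) and TATAAA (the box of that name). The NRF-1 letters overlap their own reverse complement, so that both strands can match at 1 place. The NRF-1 letters stood in 16.9% of the members' promoters, against 5.36% of the promoters of genes measured above the floor and 2.71% of all 32851 promoters of the table. The YY1 letters stood in 11.3%, 4.61% and 2.75% of the same sets, the ETS letters in 5.63%, 8.26% and 3.89%, and the TATA letters in 9.86%, 8.04% and 13.6%. The members' promoters thus held the NRF-1 and YY1 letters in a larger share than either comparison set and the ETS letters in a share between them. A match is a description of the letters and does not show binding.

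The stretches of 4 members are shown from 250 bases before to 30 bases after the start, 5′ to 3′ on the gene's strand, with matches in capitals. Ndufa3 had the largest mean log2 ratio of the members measured in both experiments, under the reported setting. Sdhb and Cycs carry the NRF-1 letters and stand for complex II and cytochrome c, and Uqcr11, of complex III, carries both NRF-1 and ETS letters. In Ndufa3, chr7:3617123-3617402 (plus strand), the TATA letters begin at base -166 and the YY1 letters at base 23 of the transcript. In Sdhb, chr4:140961021-140961300 (plus strand), and in Cycs, chr6:50566540-50566819 (minus strand), the NRF-1 letters lie on the opposite strand from base -54 and base -60. In Uqcr11, chr10:80406792-80407071 (minus strand), the ETS and NRF-1 letters, both on the opposite strand, begin at bases -66 and -4.
Ndufa3: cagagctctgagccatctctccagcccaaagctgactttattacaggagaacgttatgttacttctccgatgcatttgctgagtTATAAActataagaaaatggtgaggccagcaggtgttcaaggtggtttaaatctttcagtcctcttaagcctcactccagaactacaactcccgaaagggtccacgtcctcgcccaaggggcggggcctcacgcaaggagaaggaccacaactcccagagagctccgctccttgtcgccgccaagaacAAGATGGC
Sdhb: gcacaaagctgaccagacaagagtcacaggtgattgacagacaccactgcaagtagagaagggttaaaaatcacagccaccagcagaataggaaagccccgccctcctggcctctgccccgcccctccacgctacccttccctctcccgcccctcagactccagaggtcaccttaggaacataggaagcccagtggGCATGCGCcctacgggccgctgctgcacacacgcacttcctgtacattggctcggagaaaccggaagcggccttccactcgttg
Cycs: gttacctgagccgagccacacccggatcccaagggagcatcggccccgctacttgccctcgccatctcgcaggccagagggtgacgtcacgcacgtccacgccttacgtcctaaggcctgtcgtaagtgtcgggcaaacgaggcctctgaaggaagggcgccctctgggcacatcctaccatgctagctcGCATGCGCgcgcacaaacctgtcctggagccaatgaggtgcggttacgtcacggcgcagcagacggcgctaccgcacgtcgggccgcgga
Uqcr11: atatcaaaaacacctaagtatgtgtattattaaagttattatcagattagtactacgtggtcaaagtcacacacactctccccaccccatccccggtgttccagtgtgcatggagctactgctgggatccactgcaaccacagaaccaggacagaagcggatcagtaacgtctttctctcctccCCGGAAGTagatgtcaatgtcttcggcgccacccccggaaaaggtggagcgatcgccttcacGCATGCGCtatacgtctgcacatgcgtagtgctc

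The label of the transgenic samples was first checked by Sox13 itself. Sox13 was at 5951 in the transgenic sample of experiment 1 and below the floor in its wild type, at least 59.5-fold apart, and at 3832 against 599.6 in experiment 2. Every double-positive thymocyte marker with a probe set (5, 6 and 12 genes for Mu11K A, Mu11K B and U74A, with Cd4, Cd8a and Rag1 in the list) lay above the floor in both genotypes. The B cell markers summed to 7268 in the transgenic and 4749.9 in the wild-type sample of Mu11K A, to 21231 and 13012 for Mu11K B, and to 14209.5 and 12890.2 for U74A. Of these, Cd22 was at the floor in both genotypes by Mu11K A and U74A, and Cd79a and Pax5 by Mu11K B. The list also held Cd74, H2-Aa and H2-Ab1, genes of the MHC class II pathway. The sums do not tell which genes carried the difference and are not a count of B cells. The erythroid markers summed to 59.9 and 197.9 for Mu11K A, to 2764 and 558.4 for Mu11K B and to 2155 and 760.1 for U74A. On Mu11K A, 0 of 2 erythroid genes lay above the floor in the transgenic and 1 in the wild-type sample, so that difference involves values below the floor. The natural killer markers, of which 1 gene each lay above the floor, summed to 8604 and 1535 for Mu11K B and to 1439 and 648.7 for U74A, and none lay above it for Mu11K A. Of the thymic epithelium markers none lay above the floor on Mu11K A or U74A, and 1 of 3 did on Mu11K B, in the transgenic sample. Of the myeloid markers, 2 to 5 genes lay above the floor on an array, and their sums were 2165 and 2415, 995.2 and 1095, and 1072 and 1000 on the 3 array types. The part of these cells in the members' values was not tested, and in such sorted bulk samples fewer cells of a type and less RNA per cell cannot be told apart.

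Of the 80 members, 60 had a probe set in experiment 1, 75 in experiment 2 and 55 in both. A probe set above the floor on at least 1 array was found for 53 members in experiment 1 and 68 in experiment 2, and for 44 members in both. The 3 members below the floor wherever they were measured were Cox7a1, Ndufaf4 and Ndufc2. In experiment 1 the members below the floor on both arrays were Cox8c, Cox6a2, Cox8b, Atp5d, Ndufb10, Sdhd and Ndufaf4. In experiment 2 they were Cox7a1, Cox5a, Cox8a, Atp5j2, Ndufa12, Ndufc2 and Ndufaf4. Several of these genes were far above the floor in the other experiment, where other probe sets read them. Cox5a, a nuclear-encoded subunit of complex IV, was at 5359 in the transgenic and 4019 in the wild-type sample on Mu11K, and all its U74A values lay below the floor. Sdhd, a membrane anchor of complex II, was below the floor on Mu11K and at 4724 and 3904 on U74A. A floor value of a member therefore differed between array types for the same kind of cell.

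Whether members differed between the genotypes over both experiments was tested with limma on all 3237 genes measured in both, of which 5 (0.154%) passed at an adjusted p of 0.05. None of the 44 members did: limma called 0 with adjustment and 0 without it at p under 0.05. The unpaired fit called 0 of all 3237 genes, so its 0 for the members says nothing about them in particular. The member with the lowest adjusted p was Ndufa3, at 0.796. The description that follows is therefore of levels and differences that did not pass the test, and a p above the threshold does not show that the genotypes were alike.

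In experiment 1 most members were a little higher in the transgenic sample, and in experiment 2 they were spread around equal levels. In experiment 1, 44 of 53 members had a log2 ratio above 0, where 45.6% of all 3927 genes did, and the median log2 ratio was 0.26 for the members and -0.07 for all genes. In experiment 2, 39 of 68 members had a log2 ratio above 0, where 45.4% of all 5377 genes did, and the medians were 0.03 and -0.03. A gene above the floor in 1 genotype alone has a ratio whose sign is fixed by that filter. Among members with all probe sets in use above the floor in both genotypes, 42 of 49 were higher in experiment 1, against 48.9% of such genes. In experiment 2 it was 38 of 64, against 46%. A difference of 2-fold or more was rare: 1 member was higher by that much in experiment 1 (background 5.25%), none was lower (background 11.7%), and in experiment 2 none was higher (background 0.855%) or lower (background 0.446%). The count in experiment 1 changed with the processing. With a floor of 50 it was 3 members, all higher (background 5.82% higher and 14% lower). Of those, Ndufab1 and Ndufa10 had negative wild-type values, so the lower floor set the size of their folds. With median scaling it was 5, all higher (11.7% and 5.63%). With quantile normalization it was 0 (7.26% and 7.85%), and with loess 0 (7.51% and 7.36%). The members' log2 ratios ran from -0.62 to 1.02 in experiment 1 and from -0.52 to 0.42 in experiment 2. The Mu11K A and B arrays gave like values when taken alone, with 36 of 43 members higher and a median of 0.26 on the A array, and 10 of 12 and 0.24 on the B array.

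**Figure D1:**
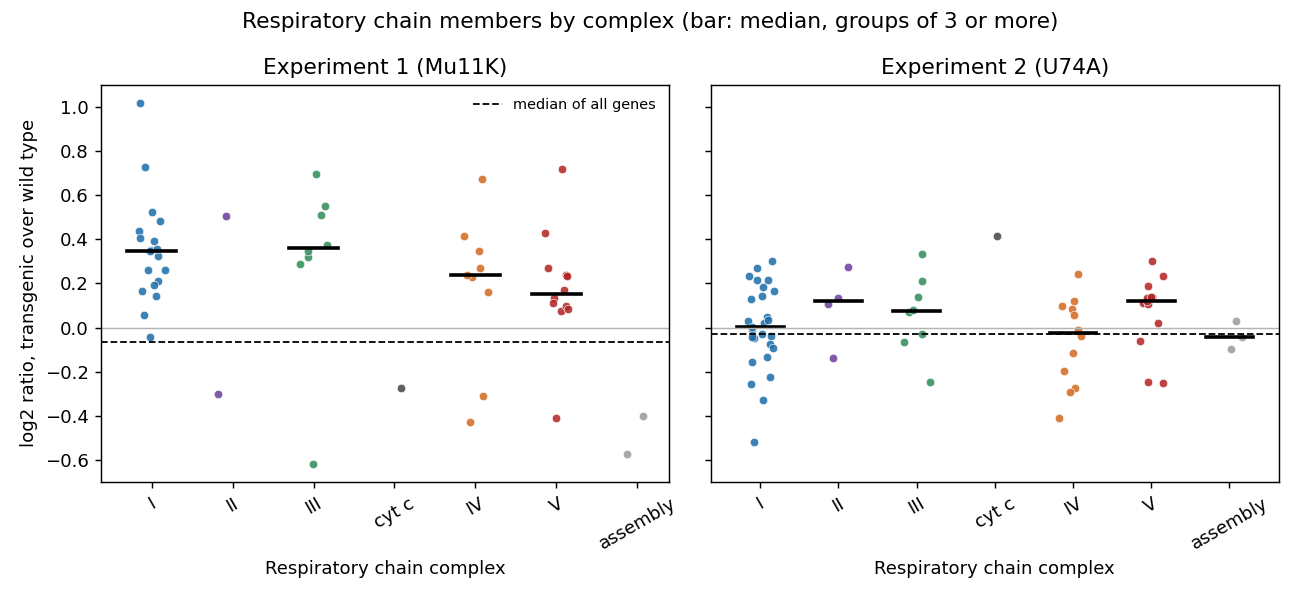
Each point is a member gene, placed by complex on the x axis and by its log2 ratio (transgenic over wild type) on the y axis, with 1 panel per experiment. Black bars are medians of groups of 3 or more members, and the dashed line is the median of all genes. In experiment 1 the medians of complexes I and III are 0.35 and 0.36 and lie above that line at -0.07, and in experiment 2 every complex has a median between -0.03 and 0.12.

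In experiment 1 the log2 ratio changed with the level of the genes, and members were mostly bright. Of the 53 members, 44 had a mean level above 1024, while most other genes lay lower. Over all genes of experiment 1, the median log2 ratio was -0.24 at levels of 100 to 256, -0.23 at 256 to 512, -0.02 at 512 to 1024, 0.13 at 1024 to 2048, 0.26 at 2048 to 4096 and 0.20 above 4096. In the last 3 classes the members' medians were 0.35 (9 members), 0.32 (19 members) and 0.26 (16 members). There 7 of 9, 18 of 19 and 16 of 16 members were higher in the transgenic sample, against 59.1%, 68.9% and 72.5% of all genes of the same classes. The members' medians thus lay closer to those of genes of like level than to the median of all genes, while their shares of higher genes stayed above those of the same classes. In experiment 2 the medians of all genes moved only from -0.06 in the lowest class to 0.03 in the highest, and the members' median from -0.16 to 0.09 between the same classes.

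**Figure D2:**
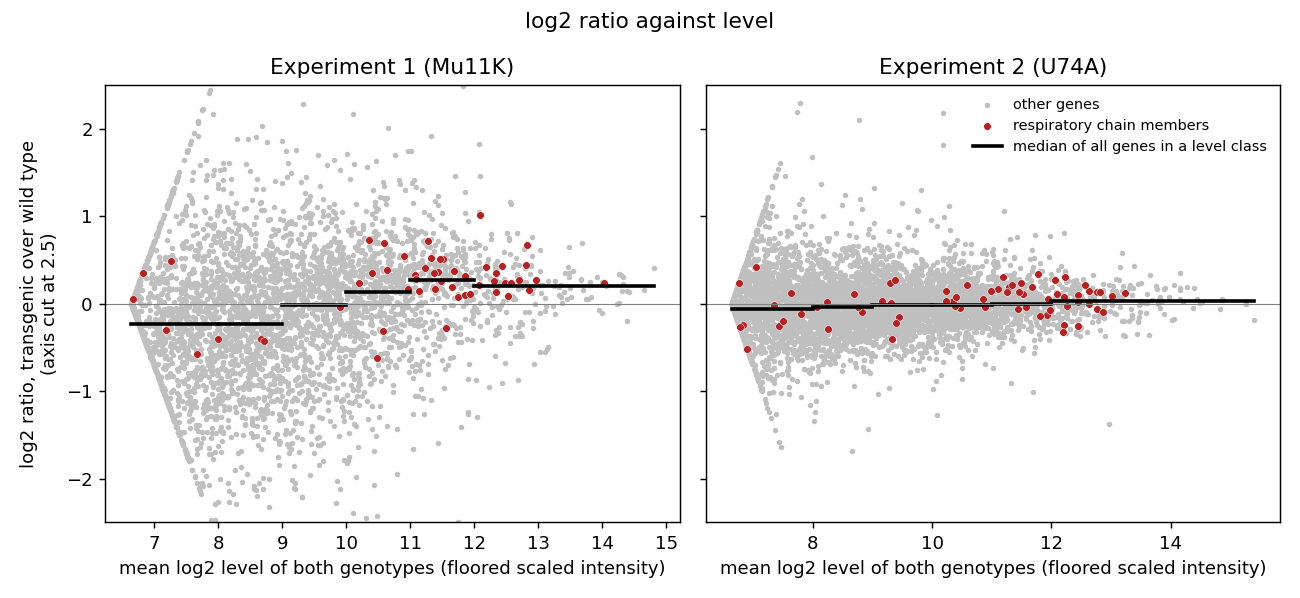
The x axis is the mean log2 level of both genotypes and the y axis the log2 ratio (transgenic over wild type), for members (red) and all other genes (grey), with 1 panel per experiment. Black bars are medians of all genes in a level class; in experiment 1 they climb from -0.24 to 0.26 with level, and the members lie mostly at the bright end.

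Other ways of scaling the arrays changed the members' distance from the median of all genes. Under quantile normalization the experiment 1 median was 0.14 for the members and 0.06 for all genes, with 42 of 53 members above 0 against a background of 54.9%. Under loess normalization, which removes a trend with level, the medians were 0.12 and 0.04, with 39 of 53 members above 0 against 53% of all genes. Scaling to the array median gave 0.60 and 0.27, with 49 of 53 members and 64.8% of all genes above 0. The members' median stood 0.33 above that of all genes under the trimmed mean and 0.33 under median scaling, but 0.08 under quantile normalization and 0.08 under loess. In experiment 2 the members' medians were 0.04 (quantile) and 0.05 (loess), with 40 of 68 and 41 of 68 members above 0 against 47.4% and 49.9% of all genes. Median scaling gave 0.09 there, with 48 of 68 members above 0 against 54.3% of all genes.

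**Figure D3:**
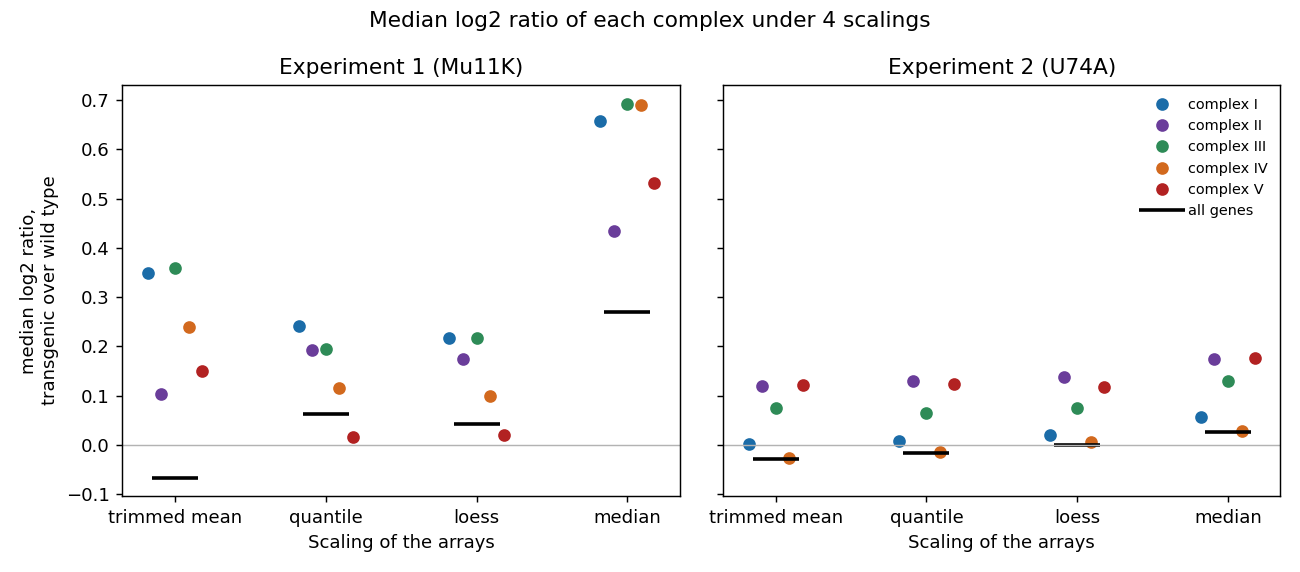
Median log2 ratio, transgenic over wild type, on the y axis of complexes I to V (coloured points) and of all genes (black bars) under each of 4 scalings of the arrays (x axis), with 1 panel per experiment. In experiment 1 the median of all genes runs from -0.07 under the trimmed mean to 0.27 under median scaling, and complex V falls to 0.02 under quantile and loess normalization.

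In both experiments together, 22 of the 44 members were higher in the transgenic sample each time, where 23.9% of all 3237 genes were, and 4 were lower each time, where 30.4% of all genes were. Another 14 members were higher in experiment 1 and lower in experiment 2, and 4 the other way round. Among those higher in both, Ndufab1 in experiment 1 and Ndufs4 in experiment 2 exceeded the floor in the transgenic sample alone, which fixed the sign of these ratios. The log2 ratios of the 2 experiments had a Pearson correlation of 0.02 and a Spearman correlation of -0.02 across the 44 members, and 0.18 and 0.11 across all 3237 genes. Genes are not independent replicates and the members of an experiment share its arrays, so these values only describe the spread. A member's difference in experiment 1 thus gave little hint of its difference in experiment 2. The 4 members lower in both were Uqcrc2, Atp5pb, Cox7b and the assembly factor Ndufaf1.

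**Figure D4:**
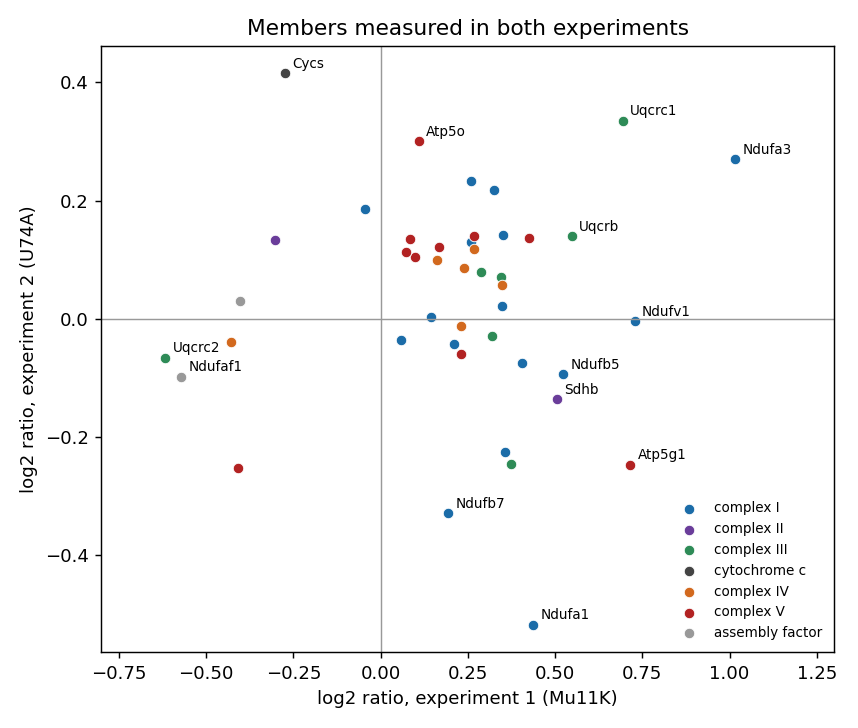
Each point is 1 of the 44 members measured in both experiments, with its log2 ratio in experiment 1 on the x axis and in experiment 2 on the y axis, coloured by complex; named points lie farthest from 0 in either experiment. The points fill the right side, higher in experiment 1, above and below 0 in experiment 2, with 22 members in the upper right and 4 in the lower left.

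Complex I, the NADH dehydrogenase, had the most members. In experiment 1, 18 of its 19 measured members were higher in the transgenic sample, with a median log2 ratio of 0.35, while in experiment 2 it was 14 of 27, with a median of 0.00. Ndufab1 and Ndufa10 in experiment 1 and Ndufs4 in experiment 2 exceeded the floor in the transgenic sample alone, so these ratios could only be above 0. For Ndufa1 in experiment 2 only the wild type exceeded it, so that ratio could only be below 0. The experiment 1 median was 0.24 under quantile and 0.22 under loess normalization. Of the 16 members measured in both, 7 were higher in both, none lower in both and 8 higher in experiment 1 and lower in experiment 2.

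Ndufa3, an accessory subunit of complex I, was at 6176 in the transgenic and 3053 in the wild-type sample of experiment 1, 2.02-fold higher, and the only member past 2-fold. In experiment 2 it was at 729.9 and 605.1 by the mean of a pair of probe sets, 1.21-fold higher. Those probe sets gave log2 ratios of 0.46, at levels of 168 and 122.5, and 0.09, at 3170 and 2988. Over both experiments the log2 ratio averaged 0.64 ± 0.35 (limma SE; n = 2 experiments, adjusted p = 0.796). Both transgenic samples were above their wild type, by log2 ratios that lay farther apart than the size of their mean, and under quantile or loess normalization no member reached 2-fold in experiment 1.

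Ndufv1, the flavoprotein that takes up electrons from NADH, was at 1691 against 1020.4 in experiment 1 and at 6322 against 6342 in experiment 2. It was thus 1.66-fold higher in the first and nearly equal in the second, with a mean log2 ratio of 0.36 ± 0.35 (limma SE, n = 2; adjusted p = 0.886). Ndufs3, a core subunit of the arm that carries the iron-sulfur clusters, was at 2418 against 1929.8 and at 2793 against 2403. It was higher in both, by 1.25-fold and 1.16-fold (mean log2 ratio 0.27 ± 0.34, limma SE; adjusted p = 0.911). Ndufs4, an accessory subunit whose loss causes Leigh syndrome, was at 3141 against 2622 in experiment 1 and at 117.5 against a wild type below the floor in experiment 2. It was 1.20-fold and at least 1.18-fold higher, with the second value close to the floor.

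Of the other complex I members, those below the floor in 1 experiment are named by that rule, and the rest were picked after their values were seen. Ndufb5 was 1.44-fold higher in experiment 1, at 3063 against 2129.9, and was at 7249 against 7741 in experiment 2. Ndufa1, which is needed for assembly of the membrane arm, was 1.35-fold higher in experiment 1, at 8359 against 6172. In experiment 2 its transgenic value lay below the floor against 143.3 in the wild type, at least 1.43-fold lower. Ndufb7 was at 3453 against 3019 and at 4165 against 5234, so that both of these genes differed in direction between the experiments. Ndufb10, below the floor in experiment 1, was at 2605 against 2117 in experiment 2. Ndufa12, below the floor in experiment 2, was at 1816 against 1386 in experiment 1. Ndufab1 and Ndufa10 had their wild type below the floor in experiment 1, with 127.4 and 104.1 in the transgenic sample. Ndufa5 was the complex I member with a ratio below 0 in experiment 1, at 938.4 against 967.5.

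Complex II, succinate dehydrogenase, links the tricarboxylic acid cycle to the chain. Sdhb, its iron-sulfur subunit, was at 3476 in the transgenic and 2447 in the wild-type sample of experiment 1 and at 3421 against 3759.95 in experiment 2. It was 1.42-fold higher in the first and 1.10-fold lower in the second (mean log2 ratio 0.19 ± 0.35, limma SE; adjusted p = 0.951). Sdhc, a membrane anchor, went the other way, at 130.9 against 161.4 and then at 2551 against 2326. Its mean log2 ratio of -0.08 ± 0.34 (limma SE; adjusted p = 0.978) had the opposite sign under quantile, median and loess scaling. Sdha, the flavoprotein, and Sdhd were measured above the floor only in experiment 2, at 427.6 against 397.4 and at 4724 against 3904. In that experiment 3 of the 4 complex II members were higher, with a median log2 ratio of 0.12.

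Complex III, the cytochrome bc1 complex, had 7 of 8 members higher in experiment 1, with a median log2 ratio of 0.36, and 5 of 8 in experiment 2, with a median of 0.07. Its experiment 1 median was 0.19 under quantile and 0.22 under loess normalization. The 2 core proteins of the matrix side differed. Uqcrc1 was at 1957 against 1210.02 in experiment 1 and at 3962 against 3141 in experiment 2. It was 1.62-fold and 1.26-fold higher, with a mean log2 ratio of 0.51 ± 0.34 (limma SE, n = 2; adjusted p = 0.858). Uqcrc2 was at 1152 against 1767 and at 2726 against 2853. It was 1.53-fold and 1.05-fold lower, the lowest log2 ratio of all members in experiment 1 (mean -0.34 ± 0.35, limma SE; adjusted p = 0.891). The difference between these core proteins was not tested.

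The smaller complex III subunits were higher in experiment 1. Uqcrb was at 2315 against 1582 and at 2139 against 1942, higher in both, by 1.46-fold and 1.10-fold (adjusted p = 0.888, limma). Uqcr11, whose promoter is shown above, was at 2981 against 2346 and at 1382 against 1316, by 1.27-fold and 1.05-fold (adjusted p = 0.947, limma). Of the subunits that carry the electrons, Uqcrfs1, the Rieske iron-sulfur protein, was at 3385 against 2381 and was measured in experiment 1 alone. Cyc1, cytochrome c1, was at 3757 against 2899 in experiment 1 and at 4379.7 against 5195 in experiment 2, so that its direction differed between the experiments. Both probe sets of Cyc1 on U74A gave ratios below 0, at -0.26 and -0.24.

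Cytochrome c, the carrier between complexes III and IV, had opposite differences in the 2 experiments. Cycs was at 2736 in the transgenic and 3310 in the wild-type sample of experiment 1 and at 152.1 against 114.1 in experiment 2. It was 1.21-fold lower and then 1.33-fold higher, where the second rests on levels near the floor. Its probe sets of experiment 1 gave log2 ratios of -0.42 and -0.13. Over both experiments the log2 ratio averaged 0.07 ± 0.35 (limma SE; n = 2, adjusted p = 0.981).

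Complex IV, cytochrome c oxidase, had 7 of 9 members higher in experiment 1 and 5 of 12 in experiment 2, with median log2 ratios of 0.24 and -0.03; the latter was 0.01 under loess and 0.03 under median scaling. The experiment 1 median was 0.12 under quantile and 0.10 under loess normalization. The members with the largest mean differences were Cox7b, Cox7a2l, Cox6a1 and Cox7a2, and all of them were small. Cox7a2l was at 5863 against 4606 and at 4036 against 3880, 1.27-fold and 1.04-fold higher (adjusted p = 0.947, limma). Cox6a1 was at 8722 against 7245 and at 10000.3 against 9214, 1.20-fold and 1.09-fold higher (adjusted p = 0.947, limma). Cox7a2 was at 6586 against 5579 and at 8499 against 8011, 1.18-fold and 1.06-fold higher (adjusted p = 0.961, limma).

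Cox7b and Cox7c, small subunits of complex IV, had probe sets that gave different answers within experiment 1. For Cox7b, 1 probe set was below the floor in the transgenic and at 195.5 in the wild-type sample, a log2 ratio of -0.97. The other was at 1326 against 1228, a log2 ratio of 0.11. The mean log2 ratio over both experiments was -0.23 ± 0.34 (limma SE; adjusted p = 0.947), and it was 0.04 with the brighter probe set alone. For Cox7c, a Mu11K A probe set was at 163.8 against 288.9 (-0.82) and a Mu11K B probe set at 11507 against 10034 (0.20). In both genes the probe set closer to the floor was lower and the other higher in the transgenic sample. These were the 2 of 7 members with several usable probe sets in experiment 1 that differed by 1 or more in log2 ratio, and none of 8 did in experiment 2.

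Some complex IV and V subunits come in forms of different tissues, and the forms known from heart and muscle were mostly near or below the floor. Of the pair Cox6a, the broadly expressed Cox6a1 was far above the floor, as given above. The heart and muscle form Cox6a2 lay below the floor in experiment 1 and, in experiment 2, in the transgenic sample, with 120.7 in the wild type. Of the Cox7a genes, Cox7a2 was far above the floor and the muscle form Cox7a1 was below the floor in the experiment that measured it. Of the Cox8 genes, the broadly expressed Cox8a was at 9162 against 5745 in experiment 1, 1.59-fold higher, and below the floor in experiment 2. The muscle form Cox8b and the testis form Cox8c were below the floor in experiment 1. In experiment 2 Cox8b was at 276.1 against 337.6 and Cox8c at 558.6 against 741, and for each a further probe set was below the floor. Cox4i1, the form of subunit 4 found in most tissues, was at 18043 against 15377 in experiment 1 and at 162.8 against 164.1 in experiment 2, where its probe sets gave log2 ratios of 0.29 and -0.31. Cox6b1, at 169.4 against 194.4, and the testis form Cox6b2, at 215.2 against 233.2, were measured in experiment 2 alone.

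Complex V, the ATP synthase, had 11 of 12 members higher in experiment 1, with a median log2 ratio of 0.15, and 10 of 13 in experiment 2, with a median of 0.12. In experiment 1 the count was 7 of 12 under quantile and 7 of 12 under loess normalization, with a median of 0.02 under each. In experiment 2 it stayed at 10 of 13 under quantile, loess and median scaling. Of the 10 members measured in both, 7 were higher in both, although by small amounts. Atp5a1, the alpha subunit of the catalytic head, was at 7278 against 6046 and at 6678 against 6060.03, 1.20-fold and 1.10-fold higher. Atp5b, the catalytic beta subunit, was at 1277 against 1082 in experiment 1, the experiment that measured it, by the mean of a pair of probe sets. Those lay far apart in level, at 12166 against 9383 (log2 ratio 0.37) and, near the floor, at 134.1 against 124.9 (0.10).

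Atp5md, a small subunit of the membrane part, was at 6441 against 4794 and at 7583 against 6897, 1.34-fold and 1.10-fold higher (mean log2 ratio 0.28 ± 0.34, limma SE; adjusted p = 0.907). Atp5o, which ties the head to the peripheral stalk, was at 4059 against 3762 and at 5340 against 4336, 1.08-fold and 1.23-fold higher (adjusted p = 0.947, limma). Atp5pb, the b subunit of the same stalk, was lower in both, at 352.9 against 468 and at 158.6 against 188.9 (mean -0.33 ± 0.34, limma SE; adjusted p = 0.891). Its difference of 1.33-fold in experiment 1 was opposite to that of the other 11 members. The c ring has several genes for the same mature protein. Atp5g1 was at 3175 against 1933 in experiment 1, 1.64-fold higher, and at 104.2 against 123.7 in experiment 2, close to the floor (adjusted p = 0.947, limma). Atp5g2 was at 682.2 against 581.1 in experiment 2, 1.17-fold higher. Atp5d had 4 usable probe sets in experiment 2, with log2 ratios from -0.31 to 0.24, and Atp5j2 was above the floor in experiment 1 alone, at 5421 against 4942.

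**Figure D5:**
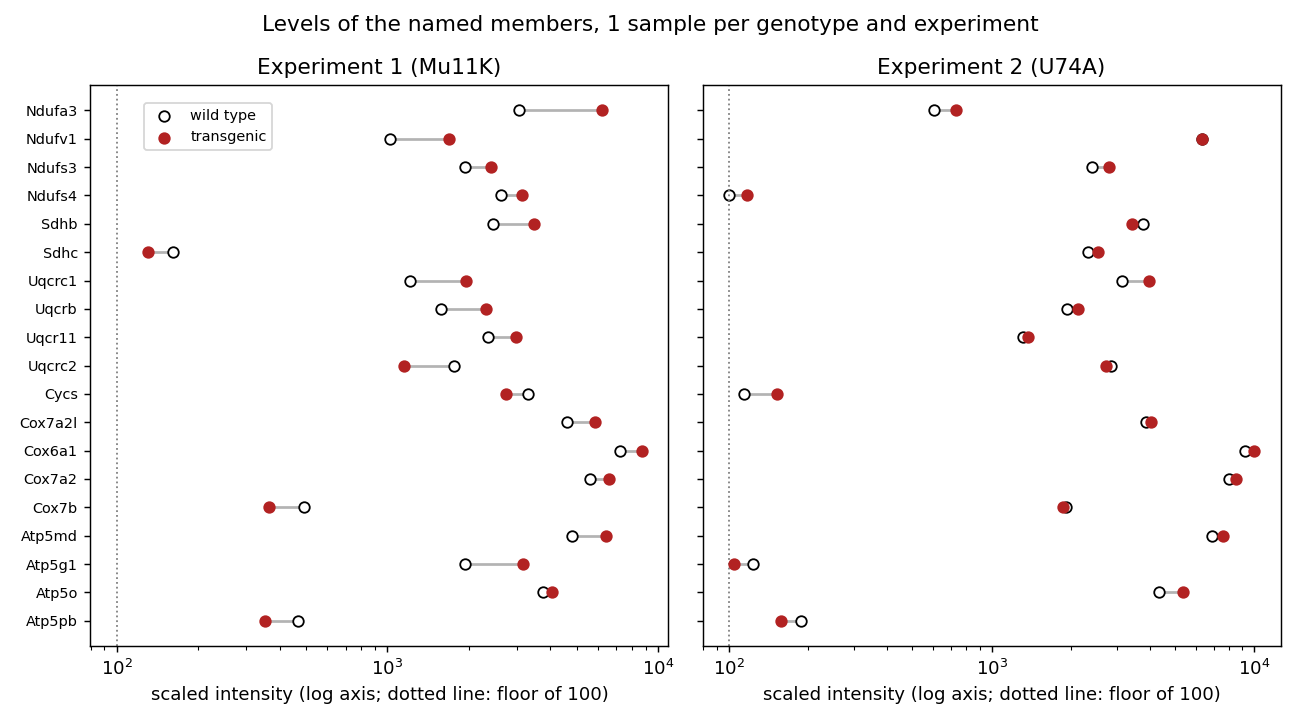
Scaled intensity (log x axis) of a selection of the named members with values in both experiments (y axis), for the wild-type (open) and transgenic (filled) sample, with 1 panel per experiment. Other named members with such values, among them Ndufb5, Ndufa1, Ndufb7, Cyc1 and Atp5a1, are not drawn. The dotted line is the floor of 100. In experiment 1 most filled points lie to the right, widest for Ndufa3 at 6176 against 3053, and in experiment 2 most pairs overlap or nearly so.

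The assembly factors taken by the rule did not share the subunits' direction in experiment 1, where Ndufaf1, a complex I assembly factor, was at 167.4 against 248.8, and Sdhaf1, a complex II assembly factor, at 222.7 against 294.3. In experiment 2 they were at 437.1 against 468 and at 578.5 against 567, and Sdhaf2 was at 425.2 against 438.2. Both genes were in the low level classes of experiment 1, in which the median log2 ratio of all genes was below 0. A list of 32 assembly factors, of which 18 had a probe set and 4 are members (the 3 genes just named and Ndufaf4, below the floor), had 6 of 13 measured genes higher in experiment 1 and 4 of 14 in experiment 2, with medians of -0.06 and -0.10. Of these, Phb2, a prohibitin of the inner membrane, was at 2896 against 1667 and at 1739.8 against 1241, 1.74-fold and 1.40-fold higher (mean log2 ratio 0.64 ± 0.34, limma SE; adjusted p = 0.796). Lrpprc, which stabilises mitochondrial messenger RNA, was at 119.3 against 348.6 and at 484.8 against 571.2, 2.92-fold and 1.18-fold lower (adjusted p = 0.769, limma).

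Other mitochondrial gene lists were counted in the same way, and none held a gene past the limma threshold. Of all genes, 45.6% were higher in experiment 1 and 45.4% in experiment 2. The mitochondrial ribosome genes (Mrpl and Mrps) had 22 of 31 higher in experiment 1 and 29 of 57 in experiment 2, with medians of 0.15 and 0.00. Of the 26 measured in both, 11 were higher in both and 4 lower in both, where 23.9% and 30.4% of all genes were. Among those higher in both was Mrpl21, at 733 against 652.6 and at 903.1 against 719.5. The tricarboxylic acid cycle and pyruvate dehydrogenase list had 4 of 10 and 11 of 17 higher, with medians of -0.18 and 0.07. Its member Cs, citrate synthase, was 1.31-fold and 1.12-fold higher. Pdk1, the kinase that switches off pyruvate dehydrogenase, had the largest difference of these lists. It was at 127.1 in the transgenic and 991.9 in the wild-type sample of experiment 1, and at 699.5 against 1689 in experiment 2. It was 7.81-fold and 2.42-fold lower, with a mean log2 ratio of -2.12 ± 0.41 (limma SE, n = 2; adjusted p = 0.0971). Under other settings its adjusted p in limma ran from 0.000881 with median scaling to 0.999, and it passed with quantile normalization (0.00531) and a floor of 200 (0.0452).

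The list for upkeep and transcription of mitochondrial DNA had 2 of 10 genes higher in experiment 1 and 4 of 11 in experiment 2, with medians of -0.18 and -0.11. Lower in both were 5 of 8, where 30.4% of all genes were. Polg2, the accessory subunit of the mitochondrial DNA polymerase, was at 163.1 against 230.4 and at 156.4 against 231.8, 1.41-fold and 1.48-fold lower (adjusted p = 0.831, limma). Gabpa, the DNA-binding subunit of the ETS factor GABP, was below the floor against 152.2 in experiment 1 and at 261.9 against 309.4 in experiment 2. Both genes lay in the lowest level class of experiment 1 (100 to 256), where the median log2 ratio of all genes was -0.24. Carriers and import genes had 8 of 18 and 13 of 22 higher, with medians of -0.02 and 0.02. The uncoupling and antioxidant list had 7 of 8 and 2 of 7 higher, with medians of 0.21 and -0.06. There Sod1, a superoxide dismutase, was 1.20-fold and 1.31-fold higher, and Cat, catalase, 1.78-fold and 1.26-fold lower (adjusted p = 0.892 and 0.803, limma). The electron carrier list had 2 of 3 and 4 of 5 higher, with Etfb, a subunit of the electron transfer flavoprotein, at 457.2 against 381.3 and at 868.9 against 713.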

How the data were processed

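RNA of sorted thymocytes was measured on 6 Affymetrix arrays, 3 per genotype. The authors deposited 1 linear intensity per probe set, and the submitters' processing notes name MAS5; its scaling target, and whether version 4 or 5 of the software made a given array's values, are not stated in the sources used here. Of the deposited Mu11K intensities 17.3% to 29.2% were negative and of the U74A intensities 0%, so values near the floor may not mean the same in both experiments. Both arrays of a type had nearly the same 2% trimmed mean, while the medians (transgenic, wild type) were 646.5 and 815 for Mu11K A, 396.3 and 544.5 for Mu11K B, and 65.4 and 68 for U74A. Between 46.9% and 57.4% of an array's probe sets lay above the floor. The 3'/5' ratios of the actin control were 1.08 and 1.32 for Mu11K B, 1.36 and 1.58 for U74A, and missing for 1 Mu11K A array; those of the Gapdh control were 1.18 and 0.87, and 0.77 and 0.79.

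Control probe sets and 21 Mu11K A probe sets without a wild-type value were left out. Intensities were scaled per array to a 2% trimmed mean of 500 and floored at 100. A gene's log2 ratio was the mean over those of its probe sets that exceeded the floor in either genotype; a fold against a floored value is written "at least". Within an experiment there is 1 sample per genotype, and no test. Across experiments, limma (version 3.58.1, R 4.3.3) tested the mean of both log2 ratios against 0, two-sided, with Benjamini-Hochberg adjustment over 3237 genes and a prior of 12.1 degrees of freedom. The p-values rest on 2 pairs of pooled samples. The limma SE behind them was set largely by the prior, which pools the variance of all genes tested. Atp5j, with log2 ratios of 0.099 and 0.104, had a limma SE of 0.338. For Ndufa1, with 0.438 and -0.519, it was 0.363. The limma SE of a member thus says little about how far apart its log2 ratios lay.

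Members and lists were chosen with earlier results of these data known. Named are members past the threshold, up to 4 per complex with the largest mean log2 ratio in size, those 2-fold apart, those with disagreeing probe sets, tissue forms, members at the floor and cytochrome c; other members named were chosen after their values were seen. Of each other list, up to 2 genes per direction with the same sign in both experiments qualified. Other floors, filters, scalings, probe set rules and an unpaired fit were tried. Protein sequences of the tissue forms were not analysed here.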

Additional observations from a re-analysis of the deposited data

How the results depend on the processing

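No member passed limma under any of the alternatives run (floors of 50 and 200, no filter, only genes that exceed the floor on every array, quantile, median and loess scaling, the brightest probe set and the unpaired fit). Over all genes the count of calls, 5 as reported, was 15 after quantile normalization, 27 after median scaling, 2 when every array had to exceed the floor, 1 with the brightest probe set, and 0 for a floor of 50, 0 for no filter and 0 for the unpaired fit. Where no gene at all was called, the 0 of the members says nothing about them in particular. The members 2-fold apart in experiment 1, 1 as reported, were 3 with a floor of 50, 5 under median scaling, 0 under quantile and 0 under loess normalization. With the floor of 50, Ndufab1 and Ndufa10 were set against a wild type at the floor. Under median scaling the members' median log2 ratio was 0.60 in experiment 1, and their median over both experiments was 0.35 in place of 0.14. That median was 0.06 without experiment 1 and 0.26 without experiment 2. The count of members higher in both experiments ran from 19 of 44 under loess normalization to 30 of 44 under median scaling. It was 21 of 36 with a floor of 200 and 22 of 55 without a filter. Under median scaling 64.8% of all genes were above 0 in experiment 1 and 54.3% in experiment 2. The share of all genes higher in both was counted for the reported setting alone, at 23.9%. Of 384 values of the 44 members measured in both experiments under alternatives, 365 kept their direction and 19 reversed, with a lowest adjusted p of 0.687. The values kept include those of the unpaired fit, which gives the same mean log2 ratio by construction and could not reverse. Cox7b reversed to 0.035 with a floor of 200, with every array above the floor and with the brightest probe set. Sdhc reversed to 0.081, 0.11 and 0.060 with quantile, median and loess scaling. Under quantile normalization Cyc1 (-0.026), Ndufb11 (-0.017), Ndufv3 (-0.011) and Atp5c1 (-0.00052) reversed, and under loess Cyc1 (-0.016) and Atp5mpl (-0.0038). Under median scaling Ndufa1 (0.20), Ndufb7 (0.13) and Sdhaf1 (0.0073) reversed, without a filter Ndufa1 (0.089), Ndufb7 (0.015) and Ndufa10 (-0.0036), and with a floor of 50 Atp5l (-0.042). Of the 10 genes of other lists named in the text, none reversed and Pdk1 passed under 3 settings. The cause of these changes was not tested. The medians without assembly factors (0.27 and 0.05), of either Mu11K array alone and without the genes of disagreeing probe sets (0.27) were alternatives chosen after seeing the data. The reported fit pairs the samples by array type, since the labels carry no replicate numbers that could serve as a block, and the unpaired fit is the alternative. With 2 pairs of samples and many members near the floor on 1 array type, small differences were not detectable.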
